A study of Mus musculus with 5 samples.

Results

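The 38 genes described here encode the machinery that brings proteins into the endoplasmic reticulum (ER), folds them there and answers a load of unfolded protein. They were taken by gene symbol, 38 of the 55471 genes in the tables, and fall into 7 sensors and transcription factors, 15 chaperones and folding enzymes, 9 genes of the translocon and signal peptidase, 5 genes of degradation and 2 targets of the factor ATF4. Their RNA was measured by sequencing in pieces of colon from male C57BL/6 mice aged 11 weeks, in which TNBS, a hapten given to provoke colitis, had been applied 3 days before. Mice were treated with vehicle (2 libraries) or with propyzamide (3 libraries), a herbicide aimed at plant microtubules, and every animal of both groups had received TNBS. The comparison is propyzamide against vehicle. Colon without TNBS was not analysed here, and the sources used here do not state the dose, the route or the segment of colon.

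Secreted and membrane proteins enter the ER through the translocon, lose their signal peptide, and are folded by chaperones such as BiP (Hspa5) and by disulfide isomerases. When unfolded protein accumulates, the sensors IRE1, PERK and ATF6 signal to the nucleus. IRE1 splices Xbp1 RNA, PERK slows translation and favours ATF4, and ATF6 is cut to release a transcription factor, so that chaperone, translocation and degradation genes are induced. Mucus-making goblet cells of the colon carry a heavy folding load. They use a second IRE1, IRE1beta (Ern2), beside the IRE1alpha (Ern1) of most cells, and the membrane-bound factors Creb3l1 and Creb3l4 are also linked to secretory cells.

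Total counts per library lay between 1573700 and 2706885, of which 823560 to 1328836 were outside mitochondrial genes and loci that resemble ribosomal RNA. In CPM (counts per 1000000, on library sizes scaled by the TMM method) 1 count was worth 0.340 to 0.609. Counts on olfactory and vomeronasal receptor genes, most of which are silent outside sensory tissue, served as a measure of background. They put background at 11.6% and 8.86% of the counts outside those loci in vehicle and at 0.575%, 5.90% and 2.18% in propyzamide. No second index sequence occurred in both groups, so index and treatment cannot be told apart. Among epithelial markers Epcam stood at 995 and 718 CPM in vehicle and at 882, 935 and 524 CPM in propyzamide. Of 10 colon epithelium markers, 4 had a positive and 6 a negative log2 fold change. At an edgeR adjusted p under 0.05, 1 was higher (Cdx2, 3.54, with 7 and 2 counts in vehicle) and 1 lower (Hoxb13), against 0.69% and 1.21% of all tested genes. Cdx2, Car1 (2.04) and Krt20 (1.66) were higher in every propyzamide library, as were 16.7% of all tested genes. Markers of gut position differed: Hoxb13 fell in propyzamide, from 165 and 179 to 23.1, 16.4 and 4.87 CPM, and the summed level of 10 small-intestine markers was 15.7 and 13.6 CPM in vehicle against 295, 1050 and 620 CPM in propyzamide. Most of the propyzamide sum was Fabp2, at 228, 837 and 453 CPM. Only 5 of the 10 had enough counts to be tested. These 5 were higher in every propyzamide library, as were 16.7% of all tested genes. Lct and Apoa4, not tested, overlapped between the groups. The part that tissue position plays in the results below was not tested. In bulk tissue, fewer cells of a type and less RNA per cell cannot be told apart, and the p-values measure the spread between these libraries, since the labels do not state that each came from its own mouse.

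The response is written into the promoters of many of these genes, and the sequences below show the shared elements. Promoters of 29 of the 38 genes were in the RefSeq set used here (GRCm38.p6, from 250 bases before to 50 bases after the start of the gene). Those of Ern2, Atf6, Creb3l1, Hyou1, Manf, Sec61a1, Ssr2, Spcs3 and Derl1 were not. The ER stress response element (ERSE), read by ATF6 and XBP1, was searched as CCAAT, then 9 free bases, then CCACG, on both strands. It was in 0.119% of 32851 promoters and in 8 of the 29, and Hsp90b1 held it at 2 places. Each site is given 5′ to 3′ along the gene with 5 flanking bases on either side and with the motif in capitals. A site on the opposite strand reads CGTGG and ATTGG.
Hspa5 chr2:34772020-34772048 (+): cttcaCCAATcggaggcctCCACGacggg
Hsp90b1 chr10:86705633-86705661 (-): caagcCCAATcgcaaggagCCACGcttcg
Hsp90b1 chr10:86705528-86705556 (-): gagtgCGTGGtgaggcacgATTGGtgagt
Calr chr8:84847070-84847098 (-): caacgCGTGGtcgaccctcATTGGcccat
Canx chr11:50325795-50325823 (-): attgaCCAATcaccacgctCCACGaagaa
Pdia6 chr12:17266486-17266514 (+): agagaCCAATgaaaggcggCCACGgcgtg
Dnajc3 chr14:118937822-118937850 (+): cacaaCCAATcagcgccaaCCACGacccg
Creld2 chr15:88819515-88819543 (+): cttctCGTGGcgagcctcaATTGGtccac
Syvn1 chr19:6046527-6046555 (+): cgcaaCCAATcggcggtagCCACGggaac

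The compact form ERSE-II (ATTGG, 1 free base, CCACG) was in 0.0365% of all promoters and in those of Herpud1 and Dnajb11. The ATF4 element CARE (TGATG, 1 free base, AA; TT, 1 free base, CATCA on the opposite strand) is short and was in 3.97% of all promoters. Among the 29 it was in those of Trib3, Asns and Herpud1. Herpud1 therefore held both an ERSE-II and a CARE match. No ERSE-II match overlapped an ERSE match, and a match to these letters is a description of the sequence, not evidence that a factor binds there.
Herpud1 ERSE-II chr8:94386372-94386392 (+): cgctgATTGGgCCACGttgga
Dnajb11 ERSE-II chr16:22857847-22857867 (+): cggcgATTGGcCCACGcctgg
Herpud1 CARE chr8:94386312-94386329 (+): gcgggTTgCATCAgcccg
Trib3 CARE chr2:152344034-152344051 (-): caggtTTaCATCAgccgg
Asns CARE chr6:7693220-7693237 (-): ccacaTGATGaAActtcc

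The 250 bases before the start of Hspa5, at chr2:34771840-34772089 on the plus strand, show the element among the bases around it. These bases are counted from the RefSeq start, which for Hspa5 lies inside the gene as GENCODE draws it. The match is therefore also within the GENCODE gene, and the same holds for the Asns match. The Dnajb11 ERSE-II match lies after the RefSeq start and is within the GENCODE gene too. The ERSE match of Hspa5, in capitals, holds the only CCACG of these 250 bases on either strand.
Hspa5 promoter: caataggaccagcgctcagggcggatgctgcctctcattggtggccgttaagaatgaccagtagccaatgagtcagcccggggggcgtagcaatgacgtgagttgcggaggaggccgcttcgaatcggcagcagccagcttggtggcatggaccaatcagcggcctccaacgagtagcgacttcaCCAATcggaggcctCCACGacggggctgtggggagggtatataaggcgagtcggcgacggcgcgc

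Across the 38 genes no change between propyzamide and vehicle passed the test. Of the 37 genes with enough counts to be tested, 0 were called higher and 0 lower by edgeR's quasi-likelihood test at an adjusted p of 0.05, against 0.69% of all 12024 tested genes called higher and 1.21% called lower (1.9% in all). The smallest edgeR adjusted p was 0.118, for Spcs1. An unadjusted p under 0.05 was reached by 4 genes, or 10.8%, where 18.2% of all tested genes reached it. They were Canx and Spcs1 on the higher side, against 8.52% of all tested genes, and Ern2 and Creb3l4 on the lower side, against 9.65%. DESeq2's Wald test called 0 of the 37 in either direction as well. In 12 of the 37 genes (32.4%) the 2 groups did not overlap in CPM, against 37.5% of all tested genes. Hsp90b1, Dnajb9, Dnajb11, Canx, Ssr3, Spcs1 and Sel1l, 7 of the 37, were higher in every propyzamide library, as were 16.7% of all tested genes. Ern1, Ern2, Creb3l1, Creb3l4 and Syvn1, 5 of the 37, were lower in every propyzamide library, as were 20.8% of all tested genes. The median log2 fold change was 0.0068 over the 37 genes and -0.018 over all tested genes. Single genes ran from -2.18 for Creb3l4 to 1.20 for Spcs1, with 21 above 0 and 16 below. In 33 of the 37 the fitted log2 fold change was smaller in size than the widest log2(CPM + 0.5) gap between libraries of the same group. The exceptions were Creb3l4, Hsp90b1, Canx and Spcs1. The share of all tested genes for which this holds was not computed.

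**Figure D1:**
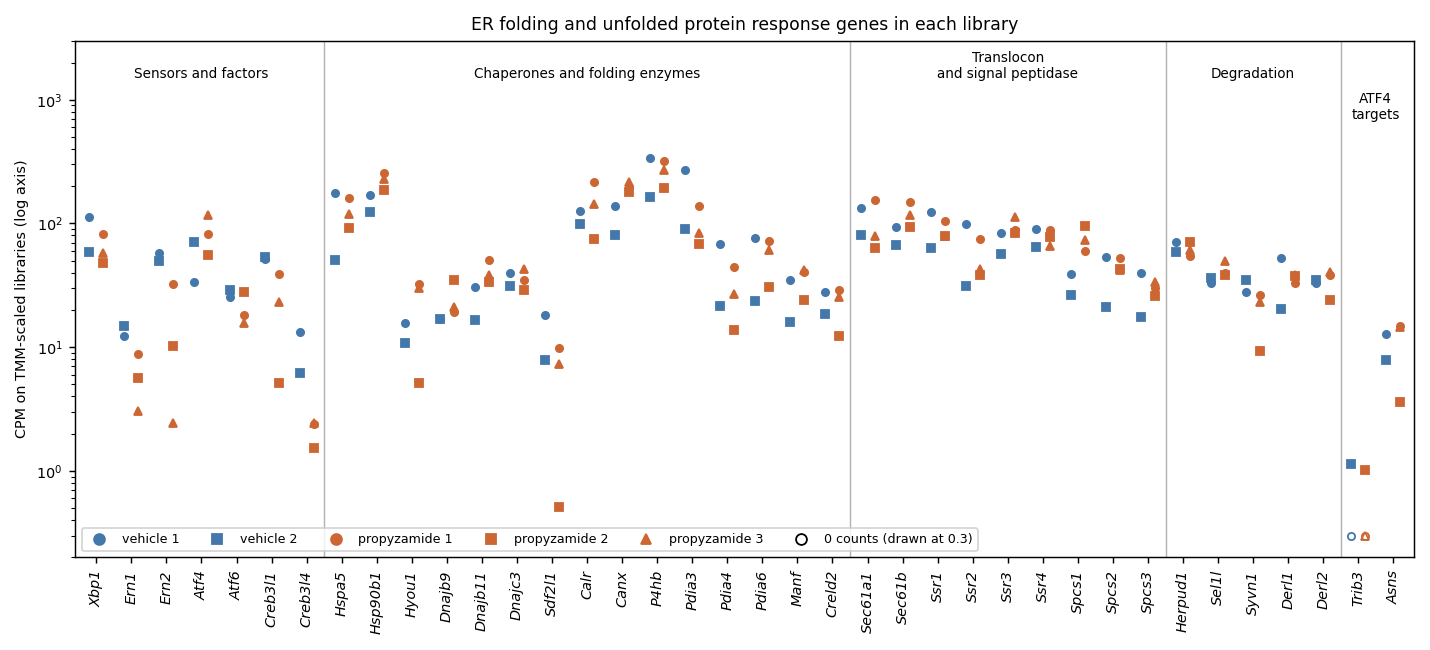
CPM of each of the 38 genes in each of the 5 libraries on a log axis, by role of the gene, with vehicle in blue and propyzamide in orange and marker shapes for replicate numbers. In most genes the colours overlap; Ern1, Ern2, Creb3l1 and Creb3l4 have all orange points below the blue, and Spcs1 and Canx all above.

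**Figure D2:**
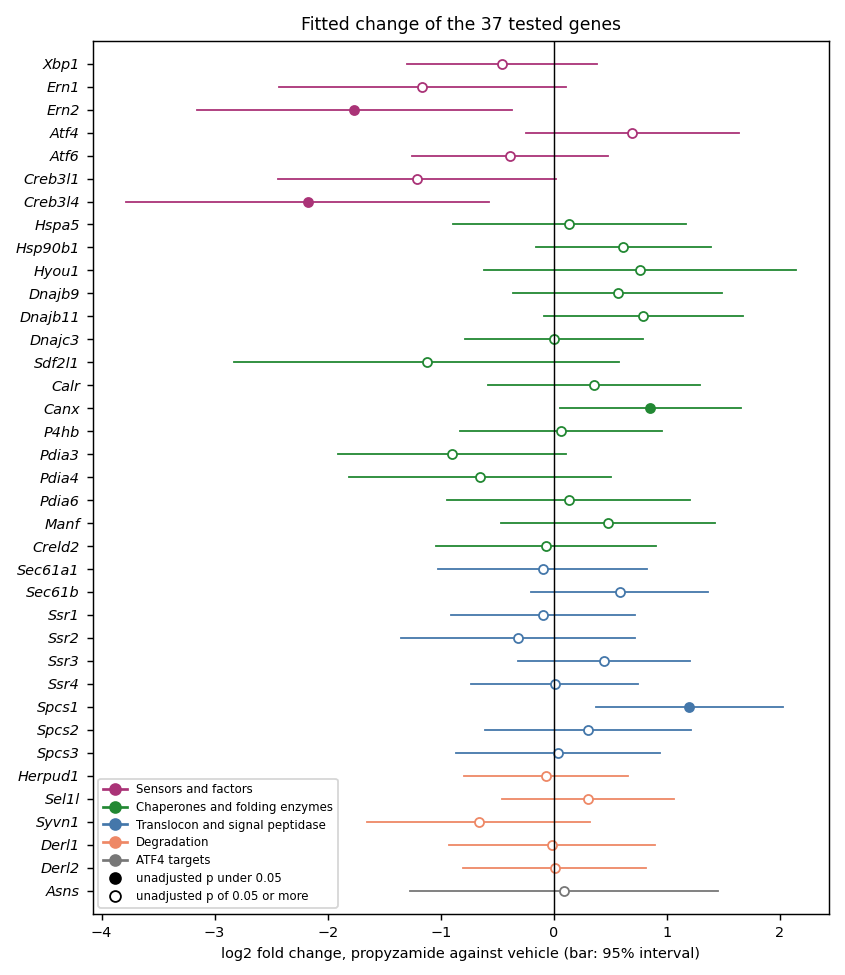
Fitted log2 fold change (propyzamide against vehicle, edgeR) of the 37 tested genes with 95% intervals, coloured by role, filled where the unadjusted p is under 0.05. Only the intervals of Ern2, Creb3l4, Canx and Spcs1 leave out 0, and none of the 37 genes has an adjusted p under 0.05.

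Among the sensors and factors, 6 of the 7 had a negative log2 fold change and their median was -1.17, beside -0.018 for all tested genes. All 7 were tested, 0 were called, and 4 did not overlap between groups, all lower in propyzamide, where 20.8% of all tested genes were lower without overlap. Under 16 alternative ways of processing the median of this group stayed negative, from -2.00 to -0.76. Without a filter on low counts it was -1.03 beside -1.14 for all genes of that fit.

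Ern2, the IRE1 of mucus-making epithelium (chromosome 7, 122169893 to 122186207, minus strand), stood at 57.5 and 49.9 CPM in vehicle and at 32.6, 10.3 and 2.44 CPM in propyzamide. The groups did not overlap, but the propyzamide libraries were spread over 13.4-fold while those of vehicle differed by 1.15-fold. The log2 fold change was -1.76 ± 0.64 (SE; 95% interval -3.16 to -0.37), with an unadjusted p of 0.0172 and an edgeR adjusted p of 0.167. The call depended on the libraries and the filter. Without propyzamide 1 the log2 fold change was -3.08 (edgeR adjusted p = 0.0112), and with no filter on low counts it was -1.62 (edgeR adjusted p = 0.0162), while over all 16 alternatives the adjusted p ran from 0.0112 to 0.552.

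Creb3l4, a membrane-bound relative of ATF6 (chromosome 3, 90237500 to 90243512, minus strand), had few counts: 32 and 11 in vehicle and 7, 3 and 4 in propyzamide, or 13.2 and 6.24 against 2.38, 1.54 and 2.44 CPM. Every propyzamide library was below both vehicle libraries. Its log2 fold change of -2.18 ± 0.74 (SE; 95% interval -3.78 to -0.57) had an unadjusted p of 0.0119 and an edgeR adjusted p of 0.144. Creb3l1, a second such factor (chromosome 2, 91982328 to 92024502, minus strand), stood at 52.1 and 53.3 CPM in vehicle and at 39.1, 5.13 and 23.1 CPM in propyzamide. The vehicle libraries were nearly equal and the propyzamide libraries differed by 7.61-fold. Its fold change on the log2 scale was -1.21 ± 0.57 (SE; 95% interval -2.44 to 0.02), with an edgeR adjusted p of 0.283.

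These 3 genes are among the markers of goblet cells, and other goblet markers also varied between libraries, in part in another order. Inside vehicle Ern2, Creb3l1 and Creb3l4 differed by 1.15-fold, 1.02-fold and 2.12-fold, and the sum of the other markers by 2.91-fold. In propyzamide that sum was lowest in propyzamide 2, as were Creb3l1 and Creb3l4, whereas Ern2 was lowest in propyzamide 3, at 2.44 CPM. The summed level of the other 12 goblet markers was 9412 and 3229.8 CPM in vehicle and 6994, 768 and 4582 CPM in propyzamide. Of those 12, 1 was called lower (Best2, an anion channel, edgeR adjusted p = 0.0339) and 0 higher, and none was at 0 in all libraries. Their median log2 fold change was -1.17, with 9 below 0 and 3 above. Muc2 (-0.08) and Zg16 (0.23), the highest of them in propyzamide, overlapped between the groups. Muc2 was the largest part of the sum in every library, at 3333 and 1050 CPM in vehicle and at 3603, 349 and 2283 CPM in propyzamide. Retnlb (2.13) and Galnt12 (0.89), 2 of the 12, were higher in every propyzamide library, as were 16.7% of all tested genes. Fcgbp (-1.46), Clca1 (-2.98) and Best2 (-3.74), 3 of the 12, were lower in every propyzamide library, as were 20.8% of all tested genes. Per 1000 CPM of the 12 markers, Ern2 was at 6.11 and 15.5 CPM in vehicle and at 4.66, 13.4 and 0.531 CPM in propyzamide. Creb3l1 was at 5.54 and 16.5 against 5.59, 6.68 and 5.05 CPM on that scale. For Creb3l4 the values were 1.41 and 1.93 against 0.340, 2.00 and 0.531 CPM. On that scale the groups overlapped for each of the 3 genes. Xbp1 also overlapped on it, with its highest value, 62.8 CPM, in propyzamide 2. Hspa5, the chaperone BiP, did not overlap on it. Hspa5 was at 18.6 and 15.6 CPM in vehicle and at 23.0, 120.2 and 26.0 CPM in propyzamide. Before division by the marker sum the Hspa5 groups overlapped. That sum was lowest in propyzamide 2, at 768 CPM, which raises the values of that library on this scale. No share of all tested genes without overlap was computed on it. The part of goblet cell number in the levels of Ern2, Creb3l1 and Creb3l4 was not tested.

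Ern1, the widely used IRE1 (chromosome 11, 106394650 to 106487852, minus strand), stood at 12.4 and 14.8 CPM in vehicle and at 8.84, 5.65 and 3.04 CPM in propyzamide. Its groups did not overlap either. It had a log2 fold change of -1.17 ± 0.58 (SE; 95% interval -2.43 to 0.10), with an edgeR adjusted p of 0.320. Its long transcript and low level make it sensitive to background, which for its length would supply 21.1% of its counts in vehicle and 12.7% in propyzamide. With background subtracted the log2 fold change was -1.24, in a fit where the median over the ER genes also moved, from 0.0068 to -0.12. The part of background in the Ern1 difference was not tested. Atf6 (chromosome 1, 170704674 to 170867771, minus strand) stood at 25.2 and 28.9 CPM in vehicle and at 18.4, 27.7 and 15.8 CPM in propyzamide, groups that overlapped. Its log2 fold change was -0.39 ± 0.40 (SE), with an edgeR adjusted p of 0.666.

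Xbp1, the factor made active by IRE1 splicing (chromosome 11, 5520659 to 5525893, plus strand), stood at 113 and 58.4 CPM in vehicle and at 81.6, 48.2 and 57.2 CPM in propyzamide. The groups overlapped, and both vehicle 1 and propyzamide 1 were the highest of their group. The log2 fold change was -0.46 ± 0.39 (SE; 95% interval -1.30 to 0.38), with an edgeR adjusted p of 0.587. Among its transcript models the one of 2129 bases took 81.4% and 80.1% of Xbp1 TPM (a level per transcript length) in vehicle and 80.6%, 77.0% and 75.7% in propyzamide. A model of 1116 bases had an estimated count of 0.13 in vehicle 1 and 0 in the other libraries. IRE1 splicing of Xbp1 was not analysed here. Atf4, the factor downstream of PERK (chromosome 15, 80255184 to 80257541, plus strand), was the exception in sign. It stood at 33.9 and 71.5 CPM in vehicle and at 82.2, 55.4 and 117 CPM in propyzamide, with a log2 fold change of 0.69 ± 0.43 (SE; 95% interval -0.25 to 1.64) and an edgeR adjusted p of 0.435. Its groups overlapped through propyzamide 2.

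All 15 chaperones and folding enzymes were tested and 0 were called. Their median log2 fold change was 0.14, with 11 above 0 and 4 below, and 4 of 15 (26.7%) did not overlap between groups, all higher in propyzamide. Of all tested genes 37.5% did not overlap, 16.7% on the higher side. That sign did not hold across settings. With background subtracted the median was -0.039, beside -0.0093 for all tested genes. With limma it was -0.094 on log2(TPM + 1) and -0.083 on log2(TPM + 0.1). The medians over all tested genes in these limma fits were lower still, -0.39 and -0.47. Leaving out vehicle 1 made the chaperone median 0.66, leaving out vehicle 2 made it -0.10, and leaving out propyzamide 1 made it -0.093. With upper-quartile scaling it was 0.012, where the median over all tested genes moved to -0.14.

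Hspa5, the main ER chaperone BiP (chromosome 2, 34771970 to 34777547, plus strand), stood at 175 and 50.5 CPM in vehicle and at 161, 92.4 and 119 CPM in propyzamide. The 3 propyzamide libraries lay between the vehicle libraries, which differed by 3.46-fold. The log2 fold change was 0.14 ± 0.48 (SE; 95% interval -0.90 to 1.17), with an edgeR adjusted p of 0.919. It became 1.28 when vehicle 1 was left out and -0.43 when vehicle 2 was left out.

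Hsp90b1, the ER form of HSP90 (chromosome 10, 86690209 to 86705509, minus strand), stood at 169 and 124 CPM in vehicle and at 258, 186 and 229 CPM in propyzamide. All 3 propyzamide libraries were above both vehicle libraries. The log2 fold change was 0.62 ± 0.36 (SE; 95% interval -0.16 to 1.39), with an edgeR adjusted p of 0.396. Canx, the membrane lectin calnexin that holds newly glycosylated proteins (chromosome 11, 50293961 to 50325673, minus strand), stood at 139 and 80.0 CPM in vehicle and at 197, 181 and 217 CPM in propyzamide. Its propyzamide libraries were close to each other, within 1.20-fold, and all above vehicle. Its log2 fold change was 0.85 ± 0.37 (SE; 95% interval 0.05 to 1.65), with an unadjusted p of 0.0389 and an edgeR adjusted p of 0.242. It was positive under all 16 alternatives, from 0.53 to 1.29, and past the threshold under 0 of them.

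The soluble partner of calnexin, calreticulin (Calr), had a log2 fold change of 0.36, and its propyzamide libraries spanned 74.9 to 214 CPM around the 127 and 98.2 CPM of vehicle. Among the BiP partners, the fold changes on the log2 scale were 0.56 for Dnajb9, 0.79 for Dnajb11, 0.0012 for Dnajc3 and -1.13 for Sdf2l1. Sdf2l1 rested on 1 count in propyzamide 2 and on 44 in vehicle 1. Hyou1, which exchanges the nucleotide of BiP, had 0.76. Background made up 18.3% of its vehicle counts. The disulfide isomerases ran from -0.90 for Pdia3 and -0.66 for Pdia4 to 0.06 for P4hb and 0.13 for Pdia6. Pdia3, which works with calnexin and calreticulin, stood at 272 CPM in vehicle 1 and between 68.8 and 138 CPM in the other 4 libraries. Without vehicle replicate 1 its log2 fold change was 0.09. Manf and Creld2, secreted proteins induced by ER stress, had 0.48 and -0.07. The smallest edgeR adjusted p in this paragraph was 0.329, for Dnajb11.

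Vehicle 1 was above vehicle 2 in 14 of the 15 chaperones, and propyzamide 1 was above propyzamide 2 in 14 of 15. Propyzamide 3 was also above propyzamide 2 in 14 of 15, and propyzamide 1 above propyzamide 3 in 11 of 15. Vehicle 1 also had the lowest share of rRNA-like counts, 26.3% against 36.7% to 43.6% in the other libraries, and a TMM factor of 1.61 against 0.797 to 1.10, and the part of this in the differences was not tested. Dnajb9 was the exception both in vehicle 1 against vehicle 2 and in propyzamide 1 against propyzamide 2. It stood at 17.0 CPM in each vehicle library and at 19.4 and 34.9 CPM in propyzamide 1 and 2. The summed level of the 15 was 1550.1 and 769 CPM in vehicle and 1624.5, 983 and 1358 CPM in propyzamide. The ranges of the 2 groups thus overlapped almost wholly, with a 2.01-fold difference inside vehicle, 1.65-fold inside propyzamide and 1.14-fold between the group means. The largest gaps between the vehicle libraries were those of Hspa5 (3.46-fold), Pdia4 (3.18-fold), Pdia6 (3.18-fold) and Pdia3 (3.02-fold).

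On the scale of log2(CPM + 0.5) the median difference of vehicle 1 from vehicle 2 was 0.88 over the chaperones, 0.57 over the 37 tested genes and -0.0085 over all 12024. The median difference of propyzamide 1 from propyzamide 2 was 0.80, 0.66 and 0.0081 in the same order. That of propyzamide 3 from propyzamide 2 was 0.53, 0.35 and -0.0017, and that of propyzamide 1 from propyzamide 3 was 0.25, 0.21 and 0.018. Of the 37 genes, 78.4% were higher in vehicle 1 than in vehicle 2 and 86.5% higher in propyzamide 1 than in propyzamide 2, where the shares over all tested genes were 49.4% and 50.2%. The vehicle difference and the difference of propyzamide 1 from propyzamide 2 were also taken by promoter. The 10 genes with an ERSE or ERSE-II match, whose sites are printed above, had medians of 0.51 and 0.69. The 18 tested genes whose promoters had neither had 0.60 and 0.58, and the 9 whose promoters were not in the set had 0.72 and 0.96. These are differences between single libraries and carry no test. Goblet markers were ordered the same way inside each group, with vehicle 1 above vehicle 2 and propyzamide 2 lowest of its group, and their sums differed by 2.91-fold in vehicle and 9.10-fold in propyzamide. Smooth muscle markers were lowest in vehicle 1 and propyzamide 1 of their groups, at 497 and 3161 CPM in vehicle and 5524, 8229 and 9232 CPM in propyzamide. What part these cells have in the chaperone levels was not tested. Plasma cells, the other heavy secretors of gut, gave little: their 12 markers summed to 98.6 to 155 CPM per library, most of it Sdc1, which epithelium also makes, while Mzb1, Derl3 and Tnfrsf17 were at 1.70 CPM or less in every library.

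**Figure D3:**
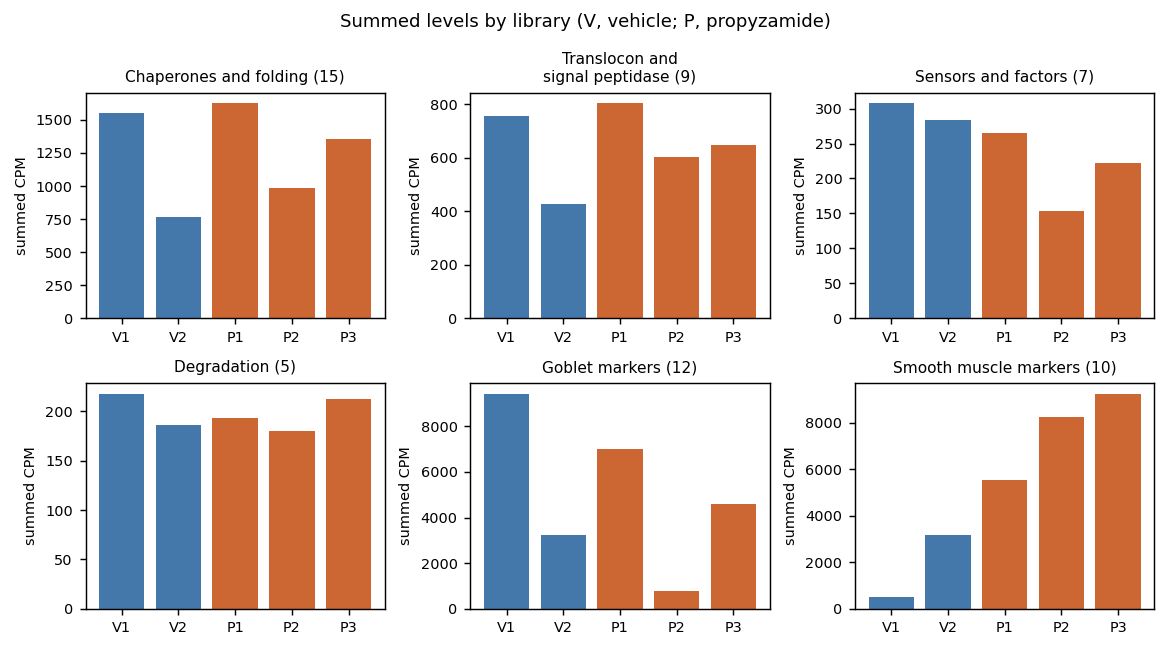
Summed CPM per library of 4 groups of ER genes and of goblet and smooth muscle markers (V, vehicle; P, propyzamide; number of genes in brackets; each axis starts at 0). The chaperone and translocon bars are high in V1 and P1 and low in V2 and P2, and the goblet bars have that order inside each group while the smooth muscle bars do not.

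**Figure D4:**
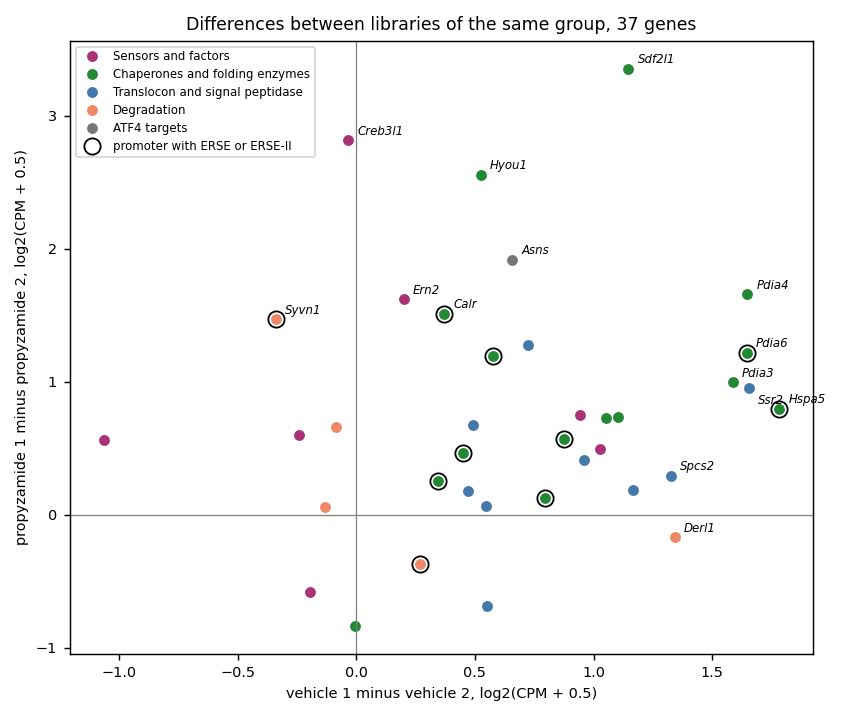
Each of the 37 tested genes by its difference between vehicle 1 and vehicle 2 (horizontal) and between propyzamide 1 and propyzamide 2 (vertical), in log2(CPM + 0.5), coloured by role, with a ring for a promoter with ERSE or ERSE-II. Most points lie in the upper right, where both differences are above 0, with and without a ring.

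The translocon and signal peptidase genes were tested in full, 9 of 9, and 0 were called. Their median log2 fold change was 0.04, with 6 above 0 and 3 below. It turned to -0.092 with upper-quartile scaling (all tested genes -0.14) and to 0.73 without vehicle replicate 1 (all tested genes 0.022). Spcs1, a small subunit of the signal peptidase that removes signal peptides (chromosome 14, 30999826 to 31001672, minus strand), stood at 39.3 and 26.7 CPM in vehicle and at 59.5, 96.0 and 73.1 CPM in propyzamide. Its groups did not overlap, and its highest library was propyzamide 2, the lowest of the propyzamide libraries for 6 of the 9 genes. The log2 fold change of 1.20 ± 0.38 (SE; 95% interval 0.38 to 2.02) had an unadjusted p of 0.00787 and an edgeR adjusted p of 0.118. It was positive under all 16 alternatives, from 0.85 to 1.49, with adjusted p from 0.0605 to 0.610.

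The other two signal peptidase genes did not share that level of difference: Spcs2 had 0.30 ± 0.42 and Spcs3 0.04 ± 0.41 (log2 fold change, SE). Whether Spcs1 differs from them was not tested. The Sec61 channel subunits Sec61a1 and Sec61b had -0.10 and 0.58. The TRAP complex, which sits beside the channel and aids insertion, had -0.10 for Ssr1, -0.32 for Ssr2, 0.44 for Ssr3 and 0.01 for Ssr4. Of these, only Ssr3 did not overlap between groups, at 83.1 and 56.7 CPM in vehicle and 88.4, 84.2 and 114 CPM in propyzamide. Vehicle 1 was above vehicle 2 in all 9 genes, by 1.76-fold in their sum (755 and 428 CPM). In propyzamide the sums were 803, 602 and 647 CPM.

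The summed level of the degradation genes was the most even among roles with more than 2 genes. It was 218 and 186 CPM in vehicle and 193, 180.2 and 212 CPM in propyzamide, a spread of 1.21-fold over all 5 libraries against 2.11-fold for the chaperones. Single genes were less even: Derl1 differed by 2.57-fold inside vehicle and Syvn1 by 2.87-fold inside propyzamide. All 5 were tested and 0 were called, with a median log2 fold change of -0.018. Herpud1, which assembles the degradation complex and is a strong target of the response (chromosome 8, 94386438 to 94395377, plus strand), stood at 71.1 and 59.0 CPM in vehicle and at 54.7, 70.8 and 60.9 CPM in propyzamide. Its log2 fold change was -0.07 ± 0.33 (SE; 95% interval -0.79 to 0.65), with an edgeR adjusted p of 0.942. Of the ligase complex that it joins, Syvn1 (the ubiquitin ligase HRD1) had -0.67 and did not overlap between groups, with 9.24 CPM in propyzamide 2. Its adaptor Sel1l had 0.30 and also did not overlap, in the other direction. The channel proteins Derl1 and Derl2 had -0.02 and 0.01.

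The ATF4 targets gave few counts. Asns, asparagine synthetase (chromosome 6, 7675169 to 7693254, minus strand), stood at 12.8 and 7.94 CPM in vehicle and at 14.95, 3.59 and 14.6 CPM in propyzamide. Its groups overlapped, and the log2 fold change was 0.09 ± 0.63 (SE; 95% interval -1.28 to 1.45), with an edgeR adjusted p of 0.963. Trib3, a pseudokinase induced by ATF4 (chromosome 2, 152337422 to 152344032, minus strand), was not tested, with 0 and 2 counts in the vehicle libraries and 0, 2 and 0 in those of propyzamide. Both groups were under the floor of 3 counts, so no fold is given.

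Compared per length, in TPM, which is not TMM-scaled, the median over the 5 libraries was highest for Sec61b (224, from 129 to 415) and P4hb (190.0, from 63.1 to 213). Spcs1 (117, from 36.0 to 136) and Ssr4 (96.7, from 75.5 to 242) followed, then Calr (70.6, from 29.4 to 164) and Hsp90b1 (65.7, from 35.0 to 104). The ranges of neighbours in that order overlap, and within vehicle the median of Ssr4 (159) was above that of P4hb (138) and the median of Calr (99.3) above that of Spcs1 (76.4). Among the sensors and factors the median TPM in vehicle was 65.8 for Xbp1, 34.9 for Atf4, 25.9 for Creb3l1, 23.9 for Ern2, 10.4 for Creb3l4, 5.495 for Ern1 and 5.435 for Atf6. In propyzamide it was 55.6 for Atf4, 25.7 for Xbp1, 7.28 for Creb3l1, 2.92 for Ern2, 2.88 for Atf6, 1.35 for Creb3l4 and 0.90 for Ern1. The order of these medians was not the same in the 2 groups, but the vehicle libraries differed as well. Xbp1 was above Atf4 only in vehicle 1, at 106 against 35.4 TPM. Vehicle 2 had 25.5 TPM for Xbp1 and 34.4 TPM for Atf4. Of the IRE1 paralogs, Ern2 was above Ern1 in 4 of the 5 libraries and below it in propyzamide 3, at 0.68 against 0.90 TPM. Those values rested on 4 counts for Ern2 and 5 for Ern1.

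**Figure D5:**
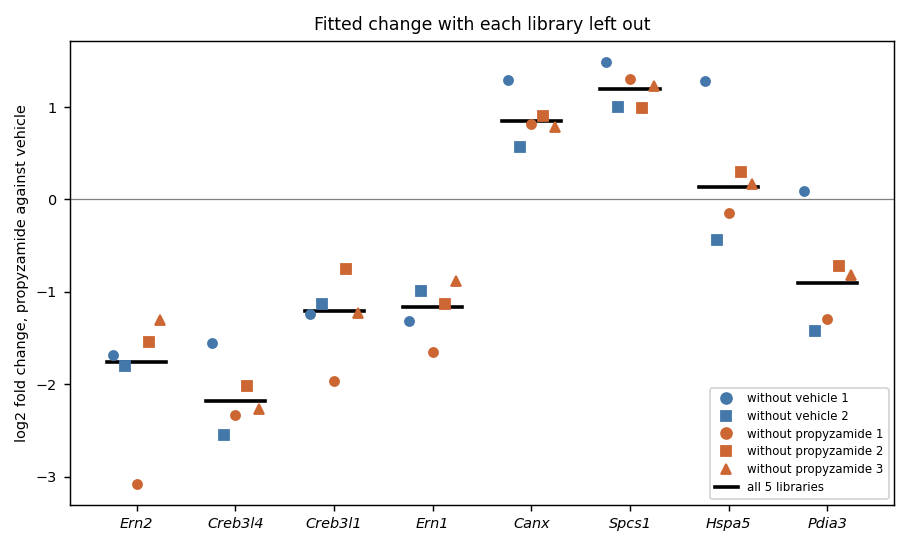
Log2 fold change (propyzamide against vehicle, edgeR) of 8 genes with all 5 libraries (black bar) and with each library left out (points; colour and shape name the library). Ern1, Ern2, Creb3l1 and Creb3l4 stay below 0 and Canx and Spcs1 above 0 in every case, whereas Hspa5 runs from -0.43 to 1.28 and Pdia3 from -1.43 to 0.09 as the vehicle libraries are removed.

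Genes of the same pathways outside the 38 were read from 8 lists of 153 genes, of which 147 were tested. In every list 0 genes were called in either direction. Over the lists 16 genes, or 10.9%, had an unadjusted p under 0.05, beside 18.2% of all tested genes. Of these, 11 were higher and 5 lower, where 8.52% and 9.65% of all tested genes were, and the median log2 fold change was 0.06. The values that follow are log2 fold changes, for some genes with SE and edgeR adjusted p. The genes named are mainly those of smallest p in each list, so they do not stand for the whole list.

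In the PERK arm, 14 of 16 genes were tested. Eif2ak3, which is PERK itself, stood at 14.1 and 15.9 CPM in vehicle and at 7.14, 3.59 and 4.87 CPM with propyzamide, without overlap, and had -1.49 ± 0.55 (edgeR adjusted p = 0.176). Background would supply 14.1% of its vehicle counts, and the value with background subtracted was -1.69. Eif2ak4, the amino acid sensor GCN2, had -1.07. Ppp1r15b and Ppp1r15a, both of which restore translation by guiding dephosphorylation of eIF2alpha, had 0.67 and -0.89. Ddit3, the stress factor CHOP, stood at 8.27 and 16.5 CPM in vehicle and at 6.80, 22.6 and 14.0 CPM in propyzamide and had 0.22 ± 0.58 (edgeR adjusted p = 0.888). Vldlr had 0.70. Among 20 targets of ATF4 in amino acid supply, all tested, Gpt2 had -1.74, Phgdh -1.03, Slc38a2 0.81 and Nars 0.86, so that the members of smallest p had both signs. Slc38a2, an amino acid transporter, stood at 48.4 and 56.7 CPM in vehicle and at 86.0, 93.4 and 97.4 CPM in the propyzamide libraries (edgeR adjusted p = 0.221).

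Among the other membrane-bound factors, Mbtps1, the site-1 protease that cuts ATF6, stood at 34.3 and 42.6 CPM in vehicle and at 16.0, 14.4 and 25.0 CPM in propyzamide. It had -1.07 ± 0.39 (edgeR adjusted p = 0.168). Creb3, Creb3l2 and Nfe2l1 had 0.28, 0.17 and -0.25. The smallest p of the 8 lists was in targeting to the ER: Srp14, a subunit of the signal recognition particle, stood at 30.2 and 16.5 CPM in vehicle and at 44.2, 79.0 and 62.1 CPM in propyzamide and had 1.39 ± 0.42 (edgeR adjusted p = 0.103). Srp9, its partner in the same domain, had 0.90, Srp54a had 0.91 and the receptor subunit Srpr -0.76. In glycosylation the catalytic subunit Stt3b had 0.97 and the shared subunit Ddost -0.97, followed by Lman1 at -0.56 and Krtcap2 at -0.45. Among other folding enzymes Tmx3, Hspa13 and Selenof had 1.13, 1.17 and 0.97, and Sil1, an exchange factor of BiP, -1.23. In export from the ER the 19 genes had a median of -0.05, with 9 above 0 and 10 below. Those of smallest p, the coat genes Sec23a, Sar1b, Sar1a and Sec23b, had 1.001, 1.09, 0.83 and 0.63. In degradation Vcp, the ATPase that pulls proteins out of the ER, had 0.66, Aup1 had -0.66 and Ube2g2 had 0.66, and 0 of 24 tested genes of that list had an unadjusted p under 0.05.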

How the data were processed

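The labels describe total RNA from pieces of frozen colon, prepared with the SMART-Seq2 method (full-length cDNA). The authors deposited RSEM tables of estimated counts and TPM per transcript, per the file headers. RSEM, kallisto and GRCm38 are named per the submitters' processing notes. The strand setting is not given in the sources used here, so overlapping, antisense and near-identical genes can share counts. Gene counts (55471 genes) are rounded sums over 142647 transcripts. Coordinates are from GENCODE M21 (GRCm38), and promoters from RefSeq (GRCm38.p6).

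All 5 libraries entered 1 fit with edgeR 4.0.16 in R 4.3.3: filterByExpr, TMM scaling, quasi-likelihood test and Benjamini-Hochberg adjustment over 12024 genes, with a threshold of 0.05. The SE and the 95% interval come from the F statistic. Background was the count per kilobase over 1974 receptor genes. The test was checked on simulated counts. Alternatives used limma 3.58.1, DESeq2 1.42.0 and other settings. The libraries were not duplicates (chi-square per degree of freedom 12.4 to 39.3). The floor of 3 counts covers counting error only, as the reads carry no molecular identifiers.

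The genes, lists and tests were chosen with earlier results of these data known. Full values are given for genes with an unadjusted p under 0.05 and for 12 preset genes, and for the pathway lists up to 4 genes of smallest p, plus Eif2ak3, Ddit3 and Ppp1r15a. A gene that this rule named is not reported here.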

Additional observations from a re-analysis of the deposited data

How the results depend on the processing

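Over 16 alternatives the count of ER genes called higher was 0 throughout. The count called lower was 1 with no low-count filter (Ern2, -1.62, edgeR adjusted p = 0.0162), 0 to 1 with each library left out (Ern2 without propyzamide replicate 1), 2 with the replicate block below and 0 otherwise. Of 591 values of single ER genes 539 stayed within their SE, 48 moved further, 4 became calls (in 2 genes) and 0 calls reversed, while 88 values without a call changed sign. The median log2 fold change of the ER genes ran from -0.23 to 0.45 with each library left out, the highest without vehicle replicate 1. It was -0.12 with upper-quartile scaling (all genes -0.14), -0.28 with limma on log2(TPM + 1) (all genes -0.39) and -0.28 on log2(TPM + 0.1) (all genes -0.47).

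The 229 calls over all genes (83 higher, 146 lower) became 1327 with no low-count filter (450 and 877), 148 with at least 10 CPM in 2 libraries, 565 under DESeq2 (260 and 305), 490 under limma of log2(TPM + 1) (66 and 424), 362 without rRNA-like and mitochondrial genes and 109 with background subtracted (54 and 55). With upper-quartile scaling the split was 79 and 235, and with limma on log2(TPM + 0.1) 40 and 237. Leaving out each library gave 36 to 499: 36 when vehicle 1 was removed, 55 for vehicle 2 (35 and 20), 499 for propyzamide 1 and 78 for propyzamide 3. These fits have fewer libraries. Otherwise the cause was not tested.

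Replicate numbers 1 and 2 occur in both groups, but the labels give them no shared origin. Deviations from the group means correlated at 0.171 and 0.148 for the same number across genes. With the replicate block 639 genes were called (324 and 315), and 2 ER genes were called lower: Ern2 (-1.47, edgeR adjusted p = 0.0478) and Creb3l1 (-1.64, edgeR adjusted p = 0.0462). Over all alternatives the adjusted p of Creb3l1 ran from 0.0462 to 0.621. At these depths genes such as Trib3 and Creb3l4 rest on few counts, and 3 of the 37 tested genes (Ern1, Atf6 and Hyou1) had over 10% of their vehicle counts at the level of background.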
